A study of Mus musculus with 72 samples.

Results

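The Hs3st5 Hcrtr2 Cbln2 Pet1 neurons described here are 150 of the 2350 single cells of the 10X table, or 6.38% of them. They were chosen by a score. Each cell was scaled to 10000 counts and log-transformed, each gene was expressed as a z-score over all cells, and the z-scores of Hs3st5, Cbln2, Hcrtr2, Cited1 and Tshz2 were averaged. The 150 cells with the highest mean among the 2211 cells without a UMI of Met were the members. A UMI is a molecular barcode that counts each captured transcript once. Because the members were selected on the levels of these 5 genes and on the absence of Met, values of those 6 genes are given below only as a description, and genes that accompany Met in other cells were kept low in the members by the same choice.

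The study measured RNA in single Pet1 neurons of the adult mouse dorsal raphe (DR), the largest serotonergic nucleus of the brain, in order to sort these neurons into molecular subtypes. The 10X cells came from 2 pools. One pool, of the full DR, was of Pet1::Flpe+/-; hM3Dq+/+ mice, on average at postnatal day 65.5. The other, also of the full DR, was of genotype En1::cre+/-;Pet1::Flpe+/-;RC::FrePe+/- and on average at day 59. All mice therefore carried the Flpe recombinase under Pet1 (Fev) control, which marks cells that have ever used this promoter, whether or not they still make serotonin. The hM3Dq allele holds an engineered receptor, but the authors state that without Cre the cells made its fluorescent label and not the receptor. In the other pool En1::cre limits the label to cells of the isthmus and first hindbrain segment. A further 70 cells were sorted by hand into 8 groups by DR subdomain and Cre driver (Sert, Npy2r, P2ry1 or Crh), always together with Pet1::Flpe+/- and RC::FrePe+/-. Tissue of several mice was combined in each 10X pool and neither kind of cell is tied to an animal by the labels, although ages differ within most manual groups, so the 10X table and each manual group were counted as 1 sample. No test between groups was made, and intervals given here are exact 95% intervals for counting error alone.

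Pet1 is an ETS-family transcription factor that turns on the genes for making, packaging and taking back serotonin. Serotonin neurons often carry a second transmitter, and many in the DR hold VGLUT3, the vesicular glutamate transporter encoded by Slc17a8, which loads glutamate into vesicles. Which peptide, hormone and transmitter receptors a Pet1 neuron carries decides which signals can reach it, and the rule gene Hcrtr2 itself encodes a receptor of the wake-promoting peptide orexin.

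The members had scores from 1.20 to 3.12, with a median of 1.42, while the other cells had a median of -0.26. There was no gap at the edge. The last member scored 1.1977, the first cell outside 1.1955, the next 1.1925, and the cell at rank 200 still had 1.11. A UMI of each of the 5 rule genes was present in 131 of the 150 members and in 263 of the 2200 other cells. As a description of the choice, summed levels in UMIs of a gene per 1000000 UMIs (CPM) were 319 in members and 132 in other cells for Cited1, 206 and 52.1 for Cbln2, 81.5 and 20.9 for Hcrtr2, 75.2 and 17.1 for Tshz2, and 61.2 and 13.5 for Hs3st5. The 10X table holds barcodes with 2 endings, called barcode sets 1 and 2 here, and nothing in the labels says which pool either set came from. No barcode sequence was in both sets. Set 1 gave 28 members of 869 cells, or 3.22% (2.15 to 4.62), and set 2 gave 122 of 1481, or 8.24% (6.89 to 9.76). With 1 table and no test, that difference could not be separated from one between pools.

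**Figure D1:**
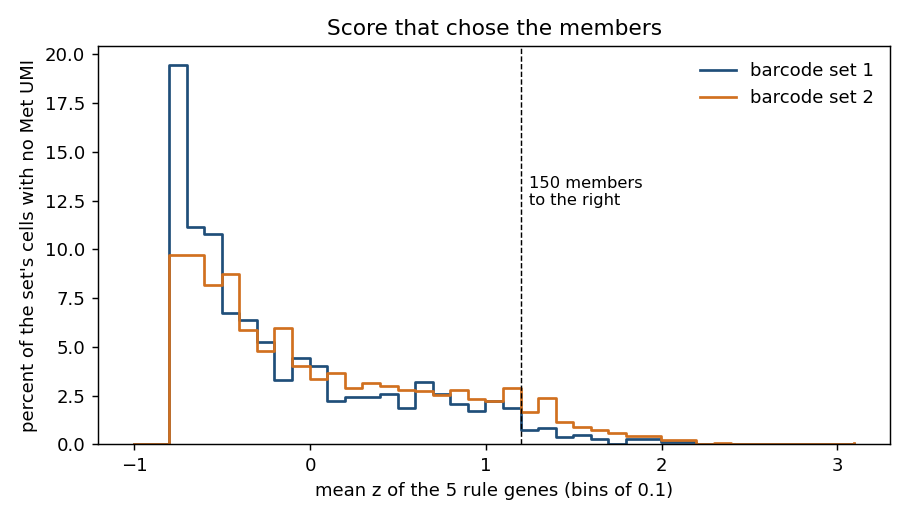
Percent of each barcode set's cells without a Met UMI (vertical axis) by mean z-score of the 5 rule genes in bins of 0.1 (horizontal axis, no unit), with a line for each set and the edge of the members as a dashed line. The scores run on across the dashed line at 1.20 in both sets with no gap.

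Members were somewhat deeper than the rest, with a median of 67371 UMIs per cell (16729 to 104218) against 59014.5 (12320 to 134079), and 7989.5 against 7704.5 genes. Across the 2211 cells without Met, the score and the UMI total had a Spearman correlation of 0.30, given as a description since the cells share libraries. The median mitochondrial share was 7.75% in members and 6.31% in other cells, and the ribosomal share was 9.68% and 9.69%. Scrublet called 0 members and 14 other cells as doublets. Markers of other cell types were low or close to the level in the other cells, after the authors had already removed cells with high glial markers. The summed level per cell of the astrocyte list had a median of 223 CPM against 370, of the oligodendrocyte list 48.1 against 56.9, and of the microglial list 12.5 against 20.2, and the medians of the vessel, blood and dopamine neuron lists were 0 in both, with a UMI of the blood list in 3 members and 37 other cells. The highest member had 340 CPM of the microglial list, and Cx3cr1, a microglial chemokine receptor, had its 21 UMIs in 2 members. Xist, which is expressed from the inactive X chromosome, had 450 UMIs in the members of set 1 and 0 in those of set 2, and the Y-linked gene Ddx3y had 0 in set 1 and 915 in set 2. The part of these differences in the values below was not tested, and values are therefore given for each barcode set.

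The members carried the serotonergic genes, most of them at levels within 2-fold of those of the other cells. Tph2, which encodes the rate-limiting enzyme of brain serotonin synthesis, was at 3270 CPM in members and 2806 CPM in other cells (log2 ratio 0.22, 0.20 to 0.24). It was found in 100% of members, and single members ranged from 1302 to 6627 CPM. Log2 ratios were -0.07 for Ddc, which makes serotonin from its precursor, -0.12 for the serotonin reuptake transporter Slc6a4, -0.27 for the vesicular monoamine transporter Slc18a2 and 0.28 for Maob, a monoamine oxidase. Fev itself was at 245 against 343 CPM, a log2 ratio of -0.49 (-0.54 to -0.43), with every member between 75.1 and 452 CPM. Of the other factors that set up serotonergic identity, Gata2 was at -0.70, Lmx1b at -0.23, Gata3 at 0.29 and En2, a midbrain-hindbrain patterning factor, at -0.96. None of these 10 genes differed by 2-fold. Insm1, a zinc finger factor of developing neurons, was the 1 factor of that list past 2-fold in the pooled cells, at 1.11 against 2.78 CPM. The members thus held the markers of Pet1 serotonin neurons. All cells of the table had been sorted on the Pet1 label and filtered against low Fev, so the presence of Fev was fixed before the rule.

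Over the 12468 genes with at least 1 CPM over all cells, 85 were at least 2-fold higher in members than in all other cells (0.682% of those compared) and 508 were at least 2-fold lower (4.07%). The differences held at 2-fold in both barcode sets for 45 higher genes (0.361%) and 206 lower genes (1.65%). The median log2 ratio over all genes was -0.03. These percentages are the background for each count below, and since the same cells were scored by the rule, nothing is read from the size of a count. The phrase "in both sets" is used below for a difference of at least 2-fold in each barcode set.

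Glutamate and GABA genes set the members apart from the other cells in opposite directions. Slc17a8 was at 407 CPM (395 to 420) in members and 139 CPM in other cells, which is 2.94-fold higher. By set it was 444 against 140 CPM in set 1 and 399 against 138 CPM in set 2. It was found in 97.3% of members and 61.2% of other cells. Single members ran from 0 to 1286 CPM around a median of 371, so nearly all held this transcript but at very different levels. Gad1, which encodes one of the enzymes that make GABA, was at 3.32 against 51.3 CPM, or -3.95 in log2 (-4.49 to -3.46). It had no UMI in the 28 members of set 1 (45.6 CPM in the other cells of that set) and 4.06 CPM in those of set 2 (54.7 CPM). Its sister enzyme Gad2 was at 42.7 against 119 CPM, with 14.9 against 89.5 CPM in set 1 and 49.0 against 136 CPM in set 2. A Gad2 UMI was in 28.7% of members and 61.9% of other cells, or 20.1% and 53.8% after each cell was thinned to 20000 UMIs. Gad2 was thus low on average but not absent, and the highest member reached 779 CPM. Both Slc17a8 and Gad2 were found in 41 members (27.3%, 20.4 to 35.2) and in 28.5% of other cells (26.6 to 30.4). These are shares of cells with a UMI of each, not of cells shown to express both, since the lowest level in any of the 14 clusters described below was still 4.38 CPM for Gad2 and 7.07 CPM for Slc17a8. Of the 6 amino acid transmitter genes compared, Slc17a8 was higher and Gad1 and Gad2 lower in both sets. The remaining vesicular transporters were nearly silent, with 1 UMI in all members for Slc17a6 and 3 for Slc32a1.

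Receptors for peptides that carry feeding, stress and social signals were among the higher genes. Npy2r, the Y2 receptor for neuropeptide Y and peptide YY, Crhr2, the receptor that responds to urocortins and corticotropin-releasing hormone, and Oxtr, the oxytocin receptor, were the 3 of 16 compared receptors for peptides, purines, cannabinoids and opioids that were higher in both sets, while the cannabinoid receptor Cnr1 was the 1 that was lower in both, and the median log2 ratio of the list was -0.08. With members chosen anew after thinning, as for all thinned log2 ratios here, Cnr1 was at -0.82, under 2-fold. The stretches around their start sites are printed because these receptors lead the description, 250 bases before the start to 50 after it, 5′ to 3′ on the gene's strand, from RefSeq on GRCm38.p6, which is mm10. Npy2r is at chr3:82548036-82548335, Crhr2 at chr6:55132967-55133266 and Oxtr at chr6:112489776-112490075, each on the minus strand. Capitals mark a match to AGGTCA, the half-site bound by many nuclear receptors.
Npy2r: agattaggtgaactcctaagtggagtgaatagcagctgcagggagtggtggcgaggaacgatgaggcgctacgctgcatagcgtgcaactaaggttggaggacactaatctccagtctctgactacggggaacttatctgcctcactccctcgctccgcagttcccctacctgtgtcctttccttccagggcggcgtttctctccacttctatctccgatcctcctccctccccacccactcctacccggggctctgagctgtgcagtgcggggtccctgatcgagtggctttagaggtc
Crhr2: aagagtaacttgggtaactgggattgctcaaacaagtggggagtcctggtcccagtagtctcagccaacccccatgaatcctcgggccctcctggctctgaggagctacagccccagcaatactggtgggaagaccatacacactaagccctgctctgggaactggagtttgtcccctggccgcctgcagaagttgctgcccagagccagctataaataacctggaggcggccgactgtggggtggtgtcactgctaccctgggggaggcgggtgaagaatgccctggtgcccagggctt
Oxtr: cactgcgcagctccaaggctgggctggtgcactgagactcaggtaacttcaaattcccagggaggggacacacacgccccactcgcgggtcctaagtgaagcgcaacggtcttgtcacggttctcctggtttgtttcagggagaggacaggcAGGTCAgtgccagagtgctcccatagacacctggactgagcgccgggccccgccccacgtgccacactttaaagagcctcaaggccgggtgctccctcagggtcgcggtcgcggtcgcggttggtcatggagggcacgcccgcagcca

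The half-site in Oxtr begins at position -98 from the start. AGGTCA was in 16.2% of the 32544 promoters of this length on either strand. Of the 45 genes that were higher in both sets, 33 had a promoter found, and 5 of those genes held these letters. The ETS letters CGGAAG were in 17.0% of promoters and the cyclic AMP response element TGACGTCA in 1.80%, on either strand, and in 5 and 0 of those 33 genes. A gene can have several promoters, so shares of genes and of promoters are not on the same base. All are matches of letters only.

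Npy2r was at 62.3 CPM in members against 16.8 CPM elsewhere (log2 ratio 1.89, 1.76 to 2.02). The values were 52.8 against 12.4 CPM in set 1 and 64.5 against 19.3 CPM in set 2. It was detected in 84.7% of members and 32.9% of other cells, or 61.7% and 19.6% after thinning, and the median member had 52.0 CPM with a highest of 305. Crhr2 was at 35.3 against 9.20 CPM, a log2 ratio of 1.94 (1.76 to 2.11), with 43.5 against 11.1 CPM in set 1 and 33.5 against 8.09 CPM in set 2. Its share of cells was 79.3% against 24.9%, or 47.0% against 12.5% after thinning. A UMI of each of these receptors was therefore found in most members at full depth, unlike Oxtr, which was more uneven. Oxtr was at 16.4 against 5.49 CPM, a log2 ratio of 1.58 (1.32 to 1.82). It reached 31.4 against 6.68 CPM in set 1 but 13.0 against 4.81 CPM in set 2, and was detected in 48.0% of members and 19.5% of other cells. A UMI of both Npy2r and Crhr2 was found in 107 members, 71.3% (63.4 to 78.4), and in 13.1% (11.8 to 14.6) of other cells. Npy2r and Oxtr were found together in 42.7% and 8.32%. In the largest cluster of the table, with 446 cells and no member, the levels were 1.52 CPM for Npy2r, 0.64 CPM for Crhr2 and 2.44 CPM for Oxtr. The lowest levels in any cluster were 0.40 CPM for Npy2r in cluster 10, and 0 CPM for Crhr2 and 0.68 CPM for Oxtr in cluster 7. Free RNA in the droplets was not measured.

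Estrogen and orphan nuclear receptors were also among the higher genes. Esr1, estrogen receptor alpha, was at 23.8 against 9.49 CPM, a log2 ratio of 1.33 (1.12 to 1.53). By set it was 34.7 against 10.3 CPM and 21.4 against 9.05 CPM, and 68.0% of members had a UMI against 25.5% of other cells. Against the other Slc17a8 cells without Met, at 13.1 CPM, the log2 ratio of Esr1 was 0.87 (0.65 to 1.07), under 2-fold. Greb1, a gene best known as an estrogen-responsive one in other tissues, was at 8.95 against 3.67 CPM, a log2 ratio of 1.29. Rorb, an orphan nuclear receptor known for its part in cortical layer and retinal identity, was at 50.1 against 15.8 CPM, a log2 ratio of 1.66 (1.52 to 1.81), with 41.8 against 13.6 CPM in set 1 and 51.9 against 17.1 CPM in set 2. Rorb was spread very unevenly, since 58.0% of members had a UMI, the median member had 14.1 CPM and the highest 365. Esr1 and Rorb were the 2 of 11 steroid, thyroid and related receptors that were higher in both sets. Crym, a thyroid hormone binding protein, was lower in both, at 3.02 against 13.8 CPM. Other receptors of the list were closer to the rest, with log2 ratios of 0.51 for Esr2, 0.27 for the progesterone receptor Pgr and -0.18 for the glucocorticoid receptor Nr3c1. Of Npy2r, Crhr2, Oxtr and Esr1, 3 were detected in 53 members and all 4 in 47, against 216 and 76 of the 2200 other cells. Most members thus had a UMI of several of these receptors, a count not redone at equal depth. After thinning, Oxtr was detected in 23.5% of members and 8.33% of other cells, and Esr1 in 40.3% and 12.8%.

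Receptors for serotonin and the other small transmitters were mostly lower or little different. Among 8 serotonin receptors none was higher in both sets, and Htr2c (2.31 against 7.40 CPM, but a log2 ratio of -0.79 without Cited1 in the rule) and Htr7 (0.40 against 2.81 CPM) were lower in both. Htr1a, the inhibitory autoreceptor of serotonin neurons, was at 69.1 against 91.0 CPM, and Htr1b at 72.1 against 68.7 CPM. Htr5b was 2-fold higher only in the pooled comparison, at 27.5 against 12.4 CPM. The histamine autoreceptor Hrh3 was lower in both sets, at 10.4 against 29.5 CPM. Hcrtr1, the other orexin receptor, had a log2 ratio of -0.98 (-1.13 to -0.82), at 35.4 against 69.6 CPM, while being found in 79.3% of members. Of 9 adrenergic, dopamine and acetylcholine receptors, the nicotinic subunit Chrna4 was higher in both sets (4.93 against 2.29 CPM, but 3.59 CPM in the other Slc17a8 cells without Met), and Adra1a, Adra2a and Chrm2 were lower. Chrm2, an inhibitory muscarinic receptor, was at 0.90 against 12.2 CPM, a log2 ratio of -3.75 (-4.88 to -2.82), and Adra2a, an inhibitory noradrenaline receptor, at 6.43 against 15.7 CPM. None of 17 GABA-A and glycine receptor subunits differed in both sets, although Gabrg3 was at 55.8 against 26.6 CPM in the pooled comparison, and 1 of 18 glutamate receptor subunits was lower, Gria3 at 1.01 against 4.24 CPM, a call that ended without Cited1 in the rule (log2 ratio -0.48) and, narrowly, after thinning.

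No peptide precursor was higher in both sets, and 3 of 20 were lower. Trh, the precursor of thyrotropin-releasing hormone, had 0 UMIs in the 150 members, which allows up to 2.43% of cells with a captured UMI and sets no limit on cells that express the gene, and 15.8 CPM in other cells. With its count in members raised to a floor of 3, Trh was 52.3-fold lower. That value is not a lower bound, since the counting interval of its log2 ratio reached up to -5.41. Sst, encoding somatostatin, was at 0.60 against 30.3 CPM, a log2 ratio of -5.65 (-7.10 to -4.53), and had a UMI in 4.00% of members and 8.41% of other cells, so its level among the other cells came from a small share of them. Nts, encoding neurotensin, was at 4.12 against 13.1 CPM. The precursors nearest to a 2-fold excess were Adcyap1, encoding the peptide PACAP, at 12.4 against 6.67 CPM, and Ghrh, encoding growth hormone-releasing hormone, at 12.7 against 6.90 CPM. Vgf, a secretory granule protein, was the 1 list gene whose intervals lay on opposite sides of 0, with a log2 ratio of -0.79 (-1.05 to -0.55) in set 1 and 0.30 (0.22 to 0.38) in set 2.

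Molecules that guide axons and hold synapses together differed in both directions. Epha3, a receptor for ephrin-A ligands, was at 15.4 against 3.66 CPM, a log2 ratio of 2.07 (1.80 to 2.34), with 12.7 against 2.76 CPM in set 1 and 16.0 against 4.18 CPM in set 2. It was detected in 51.3% of members and 14.0% of other cells. Nrp2, a co-receptor for class 3 semaphorins, was at 27.8 against 9.28 CPM, and Sema3c, a secreted ligand of that class, at 65.2 against 26.1 CPM, so receptor and ligand genes of 1 family were both higher in both sets. These were the 3 of 36 axon guidance genes that were higher, and Sema3e, Plxna4, Robo1 and Ephb1 were lower. Plxna4, another semaphorin receptor, was at 24.2 against 65.8 CPM and Robo1, a Slit receptor, at 15.6 against 39.9 CPM. Of 50 synaptic organizers and adhesion molecules, Cntn3 (15.2 against 6.54 CPM) and Cdh18 (21.4 against 9.89 CPM) were higher in both sets. The 7 lower ones were Flrt2, Cntn5, Cdh9, Cdh13, Pcdh8, Pcdh17 and Amigo2, and Cdh13, a cadherin anchored to the membrane by a lipid, was the most abundant of them at 95.3 against 294 CPM. Pcdh17, a protocadherin, was at 62.6 against 135 CPM and was found in 52.7% of members against 88.5% of other cells. Several of these calls ended under other settings. With members chosen anew after thinning, the log2 ratios were -0.70 for Pcdh17, -0.52 for Pcdh8, -0.94 for Cdh9, 0.78 for Cdh18 and -0.62 for Sema3e. With 1 rule gene left out, Pcdh17 came to as little as -0.63 and Cntn3 to 0.73, both under 2-fold.

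Few ion channel genes passed 2-fold in both sets. Kcnh8, a voltage-gated potassium channel of the Elk type, was the 1 of the 39 potassium channel genes of the list that was higher in both sets, at 7.84 against 2.17 CPM, a log2 ratio of 1.86 (1.47 to 2.22), and was seen in 24.7% of members. With members chosen anew after thinning, its log2 ratio was 0.30, under 2-fold. Among the original members 10.1% still had a UMI after thinning, against 4.33% of other cells. Kcnj4, an inward rectifier potassium channel outside the list, was also higher in both sets, at 7.44 against 3.46 CPM. Kcnip4, an auxiliary subunit of A-type potassium channels, was lower in both, at 4.42 against 9.14 CPM, but came to a log2 ratio of -0.72 after thinning and -0.67 without Cited1 in the rule, under 2-fold. Among 30 calcium, sodium, HCN and TRP channel genes, Trpc5, a receptor-operated cation channel, was lower in both sets (1.51 against 4.83 CPM). Of the 13 calcium-binding proteins of the list, 4 were lower in both sets and none was higher, while Cabp7, which the list does not hold, was higher and is given below. Calb1, encoding calbindin, was at 24.8 against 106 CPM, a log2 ratio of -2.09 (-2.28 to -1.91), and Necab1 at 1.01 against 12.7 CPM. Vsnl1, a neuronal calcium sensor, was at 265 against 770 CPM, with 320 against 878 CPM in set 1 and 253 against 707 CPM in set 2. It was found in 97.3% of members, but the median member had 153 CPM against 818 CPM in the other cells. The fourth was Caln1, at 0.90 against 6.19 CPM.

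The rule gene Hs3st5 encodes an enzyme that adds a sulfate group to heparan sulfate, the sugar chain that many growth factors bind on cell surfaces. Among the other 22 heparan sulfate genes compared, none was higher in both sets and 5 were lower, namely the related sulfotransferases Hs3st1 (5.53 against 20.9 CPM) and Hs3st2 (0.80 against 3.26 CPM), the sulfatase Sulf2 (1.81 against 6.96 CPM), and the glypican core proteins Gpc5 and Gpc6. Gpc5 was at 0.50 against 22.6 CPM, a log2 ratio of -5.49 (-7.11 to -4.26), and Gpc6 at 1.71 against 15.4 CPM. Hs3st4, another enzyme of the same class, was at 36.5 against 74.9 CPM.

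Of 41 transcription factors that mark Pet1 subtypes, 13 were lower in the members in both sets, 1 was higher and the others did not pass in both, with a median log2 ratio of -0.70 over the list. The higher one was Sox5, an HMG-box factor, at 15.9 against 5.51 CPM, a log2 ratio of 1.53 (1.27 to 1.78), with 16.5 against 5.64 CPM in set 1 and 15.7 against 5.44 CPM in set 2. Pou3f2, a POU homeodomain factor, was at 1.51 against 10.7 CPM and its relative Pou3f3 at 6.74 against 23.2 CPM. Pax5, a factor of the midbrain-hindbrain boundary, was at 7.34 against 45.8 CPM, a log2 ratio of -2.64 (-3.00 to -2.31). Sox14 was at 1.01 against 12.3 CPM, Bcl11a at 3.52 against 20.4 CPM and Bcl11b at 1.31 against 14.2 CPM. The nuclear factor I genes Nfix and Nfib, the zinc finger gene Zfp536, the LIM cofactor Ldb2 and Zeb2 were also lower in both sets. Zeb2 had 2 UMIs in the members and 9.75 CPM in other cells, and in the other Slc17a8 cells without Met it was at 0.75 CPM. Nr2f2, also known as COUP-TFII, was at 27.5 against 19.3 CPM and thus within 2-fold. Of 17 growth factor receptors and ligands, the receptor tyrosine kinases Ret (3.02 against 38.4 CPM) and Erbb4 (0.70 against 23.1 CPM) were lower in both sets and none was higher. Of 29 genes of G protein and cyclic nucleotide signalling, Rgs10, Pde7b and Prkcq were lower in both (Rgs10 at -0.97 after thinning), Prkcq at 6.64 against 55.1 CPM.

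Outside these lists, the highest ratio was that of Tanc1, a postsynaptic scaffold gene, at 8.24 against 1.68 CPM, a log2 ratio of 2.29 (1.91 to 2.67), with 9.91 against 1.31 CPM in set 1 and 7.87 against 1.90 CPM in set 2. Gng8, a G protein gamma subunit, followed at 2.08 (1.62 to 2.52), at 5.73 against 1.35 CPM. Unc13c, a Munc13 protein that primes synaptic vesicles for release, was at 26.0 against 7.36 CPM, found in 70.7% of members and 25.1% of other cells. Bcl6, a transcriptional repressor, was at 5.63 against 1.54 CPM, Slc35f4 at 16.9 against 4.73 CPM and Cabp7, a calcium-binding protein of the Golgi, at 8.34 against 2.52 CPM. Oasl2, known as an interferon-induced gene, was at 49.3 against 16.8 CPM, with 23.1 against 8.38 CPM in set 1 and 55.1 against 21.7 CPM in set 2. The rest of the 20 highest were Tll1, a secreted metalloprotease, Antxr1, a collagen-binding membrane protein, Svil, an actin-binding protein, and Gem, a small GTPase that restrains calcium channels, with log2 ratios between 1.51 and 1.67. Further genes higher in both sets included Pvrl1, the adhesion molecule nectin-1, at 33.4 against 11.9 CPM, Rasgrf2, a calcium-activated exchange factor for Ras, at 57.5 against 23.8 CPM, Plcb1, a phospholipase C driven by Gq-coupled receptors, at 41.2 against 18.0 CPM, and Crct1 at 83.1 against 37.2 CPM. Of the 45, 3 were gene models named by number only, and 21 reached 10 CPM in the members.

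**Figure D2:**
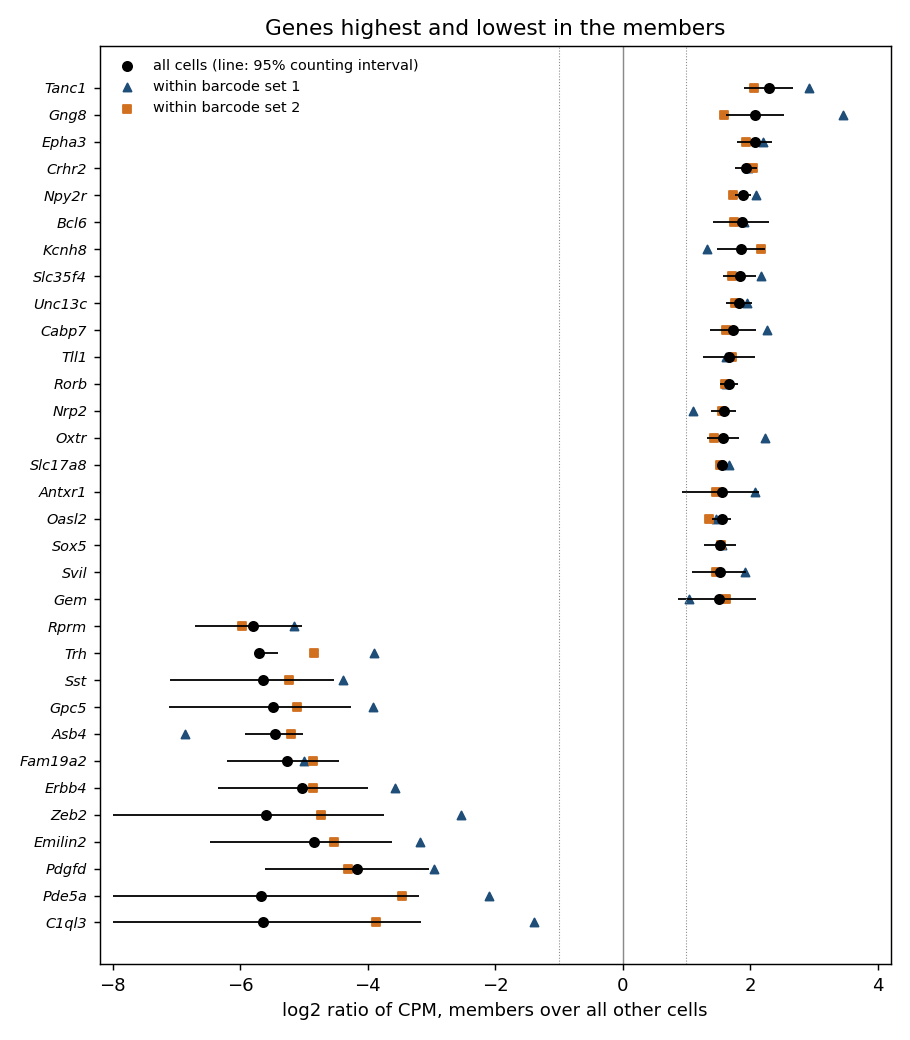
Log2 ratio of CPM in members to CPM in all other cells (horizontal axis) for the 20 highest and 12 lowest named genes (vertical axis), pooled (black points with 95% counting intervals), in barcode set 1 (triangles) and in barcode set 2 (squares); Trh, with 0 UMIs in members, is drawn at the value from its floor of 3 counts, and intervals that run past the left edge are drawn to it. The highest is Tanc1 at 2.29. Both barcode sets lie on the same side of 0 for each gene because the genes were chosen for that.

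At the lower end, Rprm, a p53 target known for halting the cell cycle, was at 1.31 against 72.9 CPM, a log2 ratio of -5.80 (-6.71 to -5.03), with 1.11 against 69.5 CPM in set 2. It was found in 8.67% of members and 56.2% of other cells. Asb4, a substrate receptor of a ubiquitin ligase, was at 4.32 against 189 CPM, a log2 ratio of -5.45 (-5.92 to -5.02), and Fam19a2, a secreted chemokine-like protein, at 1.21 against 46.3 CPM. Asb4 was nevertheless found in 17.3% of members. Asb4 and Fam19a2 were also low in cells like the members, at 14.3 and 3.94 CPM in the other cells of the cluster that holds most members, where Rprm was at 7.33 CPM. Emilin2, an extracellular matrix protein, was at 0.50 against 14.5 CPM and Pdgfd, a growth factor, at 0.60 against 10.8 CPM. Pde5a, a cyclic GMP phosphodiesterase, and C1ql3, a secreted synaptic protein, had 1 UMI each in all members, with log2 ratios of -5.68 (-10.98 to -3.20) and -5.64 (-10.95 to -3.16), so their ratios are known only roughly.

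Levels were followed along the score among all cells without Met, as a description, because the order comes from the rule. Slc17a8 was at 423, 440 and 358 CPM in members of ranks 1 to 50, 51 to 100 and 101 to 150, at 342 CPM at ranks 151 to 250, 249 CPM at ranks 251 to 500, 182 CPM at ranks 501 to 1000 and 58.5 CPM below. Npy2r went from 71.5, 63.5 and 52.6 CPM in the same 3 bins of members to 41.7, 34.8, 18.3 and 10.0 CPM. Crhr2 was at 40.7, 41.1 and 24.4 CPM and then at 30.7, 22.4, 11.0 and 3.36 CPM. Levels just outside rank 150 were thus near those just inside it, and for Crhr2 slightly above. Rorb took another course, at 44.2, 44.3 and 61.5 CPM within the members and 57.4 and 47.3 CPM in the next 2 bins before 12.1 and 6.12 CPM. Rprm was at 0.95, 2.62 and 0.30 CPM in the members, 5.78 and 11.6 CPM in the next 2 bins, and 52.4 and 110 CPM in the last 2. Gad1 likewise was at 5.02 CPM at ranks 151 to 250 and 82.0 CPM in the lowest bin.

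**Figure D3:**
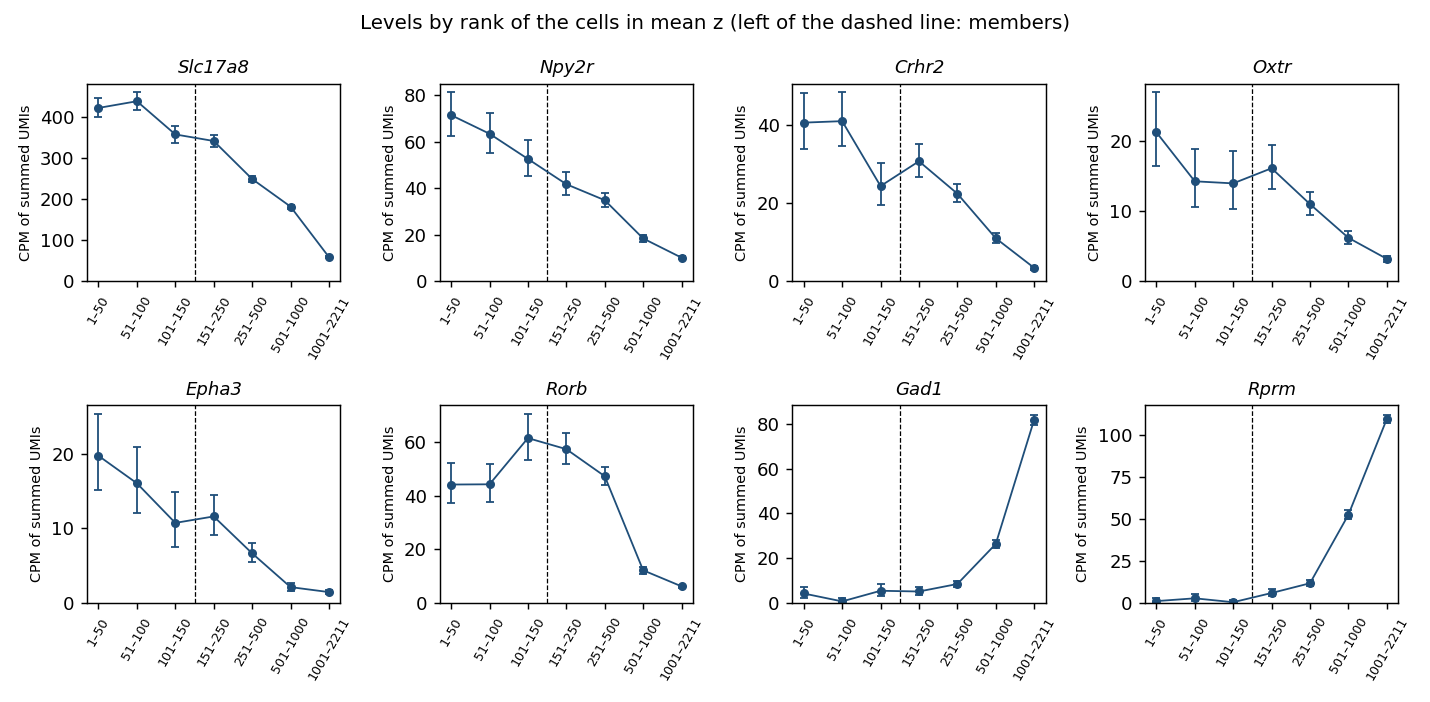
Level in CPM of summed UMIs with 95% counting intervals (vertical axes) of Slc17a8, Npy2r, Crhr2, Oxtr, Epha3, Rorb, Gad1 and Rprm over 7 bins of score rank among cells without Met (horizontal axis, highest scores at the left). Slc17a8 is at 358 CPM in the last bin of members and 342 CPM in the next bin, and Rprm and Gad1 are highest in the lowest scores.

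The members were not all alike in the genes that the rule left out. Of the 43 members with a Gad2 UMI, 6 were in set 1 and 37 in set 2, and their median UMI total was 64503 against 67724 in the 107 without. Slc17a8 was at 396 CPM (373 to 420) with Gad2 and 411 CPM (397 to 426) without, intervals that overlap, and Npy2r was at 64.8 and 61.4 CPM. Vsnl1, in contrast, was at 385 CPM with Gad2 and 219 CPM without, and Nr2f2 at 11.9 and 33.5 CPM. Rorb was found in 87 members. Those with it had Gad2 at 20.2 CPM, Vsnl1 at 164 CPM, Nr2f2 at 38.3 CPM and Nrp2 at 34.6 CPM, and the 63 without it had Gad2 at 74.8 CPM, Vsnl1 at 409 CPM, Nr2f2 at 12.2 CPM and Nrp2 at 18.3 CPM. Gad2 and Vsnl1 were thus both higher in the members without Rorb. Vsnl1 was below 100 CPM in 66 members. These contrasts are between cells of the same table, and a gene used to divide them is not counted as a result.

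Clustering of all 2350 cells by the settings of the study gave 14 clusters, numbered by size. The share of members in the cluster that holds most of them was 72.0% (64.1 to 79.0), with 108 members in cluster 3, which has 239 cells. Of these 108, 21 were in set 1 and 87 in set 2, and members made up 45.2% of the cluster. The other 42 were spread over 5 clusters, with 13 each in clusters 8 and 13, then 7, 5 and 4 in clusters 2, 9 and 6, while 8 clusters had none. With the 5 rule genes and Met left out of the variable genes, the leading cluster had 243 cells, 237 of them the same, and again held 108 members, 107 in common. The members therefore lay mostly in 1 cluster whether or not the rule genes were used, though most of its cells were not members. At a higher resolution of 1.5 the largest share fell to 43.3%, with 65 members in the largest group and 44 in the next.

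**Figure D4:**
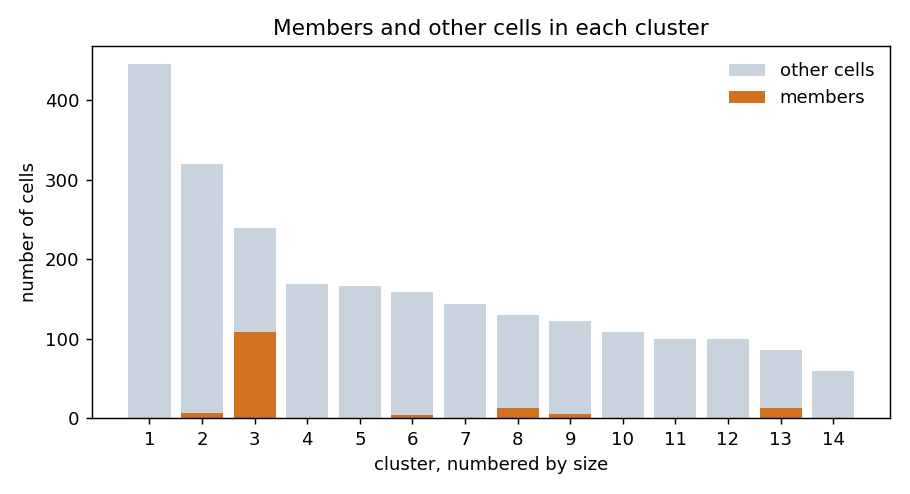
Number of cells (vertical axis) in each of the 14 clusters numbered by size (horizontal axis), with members in orange and other cells in grey. Cluster 3 holds 108 of the 150 members, and 8 clusters hold none.

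Between the 108 members inside the leading cluster and the 42 outside, Slc17a8 was alike, at 408 (394 to 423) and 403 (379 to 428) CPM. Npy2r was at 70.8 (64.9 to 77.2) and 38.7 (31.6 to 47.0) CPM, Crhr2 at 39.9 (35.5 to 44.8) and 22.4 (17.0 to 28.9) CPM, and Kcnh8 at 10.3 (8.07 to 12.9) and 1.14 (0.23 to 3.33) CPM. The peptide receptors and Kcnh8 were thus lower in the members outside. Those outside had more Nr2f2, at 47.4 against 20.4 CPM, more Rspo3, a secreted Wnt potentiator, at 48.2 against 18.6 CPM, and more Rorb, at 62.2 against 45.7 CPM. The 131 cells of the cluster that were not members had Npy2r at 48.6 CPM, Crhr2 at 30.4 CPM, Oxtr at 19.0 CPM and Slc17a8 at 305 CPM. In the 2 clusters that held 65 and 44 members at the higher resolution, members had Gad2 at 3.20 and 84.8 CPM, Vsnl1 at 128 and 392 CPM, Rorb at 66.9 and 13.7 CPM, Nr2f2 at 32.4 and 2.34 CPM, and Sema3c at 40.6 and 123 CPM. Npy2r was at 52.3 and 96.8 CPM and Oxtr at 22.8 and 12.0 CPM there, so the receptors too were shared unevenly between them. Those clusters were made from these same genes, and the values only describe them. Over the 14 clusters, Npy2r was highest in cluster 9 at 67.5 CPM, followed by cluster 3 at 58.5 CPM, whereas Crhr2 (34.7 CPM) and Oxtr (18.8 CPM) were highest in cluster 3.

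For a closer comparison, 3 sets of 80 cells each were built by the same kind of score, without members and without Met cells, from Rorb, Nr2f2 and Wnt4, from Rspo3, Foxa1 and Adgrl2, and from Maf, Nos1 and Crh. They are called the Rorb, Rspo3 and Maf sets, and their median depths were 65274, 63166 and 62154 UMIs. Slc17a8 was at 407 CPM in members and at 242, 470 and 376 CPM in the Rorb, Rspo3 and Maf sets, so it did not single out the members among these cells. Npy2r did differ from all 3, at 62.3 CPM in members and 23.3, 27.1 and 5.33 CPM. Epha3 was at 15.4 CPM in members and 2.35, 7.12 and 2.26 CPM, and Unc13c at 26.0 CPM and 4.31, 16.4 and 3.90 CPM. Crhr2, in contrast, was at 35.3 CPM in members and 25.3, 10.7 and 34.5 CPM, and Oxtr at 16.4 CPM and 17.8, 5.34 and 13.5 CPM, so for those receptors only the Rspo3 set was 2-fold lower. Gad2 was at 42.7 CPM in members and 15.7, 69.8 and 66.4 CPM. Esr1 was lower in the members than in the Maf set, at 23.8 against 53.5 CPM.

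Against the Rorb set, 101 genes were at least 2-fold higher in members in both barcode sets (0.81% of 12465) and 80 were lower (0.642%). Among the highest were Fam114a1, with 8.34 CPM in members and no UMI in the set, Nov, a secreted matricellular protein (13.6 against 0.98 CPM), Kcnh8 with 3 UMIs in the set and a log2 ratio of 3.74 (2.14 to 6.05), Pcdh7 (88.3 against 10.8 CPM) and Nhsl1. The lowest were Sst (0.60 against 23.9 CPM), Ceacam10, the neuronal oxygen-binding protein gene Ngb (1.11 against 11.9 CPM), Nr2f1, which encodes COUP-TFI (1.01 against 9.59 CPM), Arhgap36 (7.04 against 62.9 CPM) and S100a1. The Rorb set thus differed from the members in Sst, although both were low in Gad1 (3.32 and 3.72 CPM) and Rprm (1.31 and 2.74 CPM).

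Against the Rspo3 set, 106 genes were higher (0.85%) and 166 lower (1.33%). Sertm1 was at 27.4 CPM in members and had 3 UMIs in the set, a log2 ratio of 5.53 (3.97 to 7.82). Crct1 was at 83.1 against 4.55 CPM, Rerg, a small GTPase linked to estrogen receptor expression, at 38.8 against 2.37 CPM, Rorb at 50.1 against 3.56 CPM and Nrp2 at 27.8 against 2.97 CPM, and Kcnh8 had no UMI in the set. The lowest were Rprm (1.31 against 114 CPM), Erbb4 (0.70 against 28.1 CPM), Sst, Gpc5, Zfp536 and Ret (3.02 against 54.6 CPM). Of these, Rprm, Erbb4, Sst and Gpc5 were also among the 12 lowest against all other cells.

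Against the Maf set, 111 genes were higher (0.89%) and 193 lower (1.55%). Gpc3, a glypican, was at 21.6 CPM in members with no UMI in the set, and Hs3st4 was at 36.5 against 2.46 CPM, whereas against all other cells these heparan sulfate genes were at 21.6 against 19.2 CPM and 36.5 against 74.9 CPM. Gabrq, a GABA-A receptor subunit, was at 26.8 against 1.44 CPM, a log2 ratio of 4.22 (3.16 to 5.55), Crct1 at 83.1 against 5.13 CPM, Cpne9 at 48.1 against 3.28 CPM, and Pou3f1 at 9.85 CPM against 2 UMIs in the set. Rprm was at 1.31 against 166 CPM. Sfrp1, Pla2g16, Plekhg1 and Emilin2 were others at the lower end. Kcnh8, which set the members apart from the Rorb and Rspo3 sets, was at 7.84 CPM (6.20 to 9.79) in members and 8.41 CPM (6.03 to 11.4) in the Maf set.

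Among the 1219 other cells with a Slc17a8 UMI and no Met UMI, Npy2r was at 26.1 CPM, a log2 ratio of 1.26 (1.12 to 1.39) for the members. Unc13c was at 26.0 against 9.19 CPM, and log2 ratios were for Rorb 1.20 (1.05 to 1.34) and Nrp2 at 1.10 (0.90 to 1.29), while Sema3c was at 1.00 (0.87 to 1.13) and Cdh18 at 0.90 (0.67 to 1.12). Gad2 stayed at -1.08 (-1.23 to -0.94), Gad1 at -3.63 and Rprm at -6.00.

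The manually sorted cells were not used by the rule and give a view by place in the DR. Reads on genes ran from 756872 to 7664103 per cell, and groups had 6 to 10 cells aged day 62 to 119. All 6 Sert-cre cells of the caudal DR (cDR) were at day 63, whereas the other Sert-cre groups mixed days 63 and 90, the Npy2r-cre groups days 77 and 87, and 1 P2ry1-cre cell was at day 63. As a description only, the 5 rule genes scored over these 70 cells had their highest median in the Sert-cre cDR cells, at 0.63 (0.39 to 0.97), followed by Npy2r-cre cDR at 0.21, P2ry1-cre cDR at 0.11 and Sert-cre ventromedial DR (vmDR) at 0.06. Lower were Crh-cre rostral DR (rDR) at -0.09, Npy2r-cre rDR at -0.24, Sert-cre dorsomedial DR (dmDR) at -0.32 and Sert-cre dorsolateral DR (dlDR) at -0.67. Single cells of Npy2r-cre cDR and Sert-cre vmDR reached 1.90 and 1.55, above any Sert-cre cDR cell. The rule genes did not move together there, since Hs3st5 was read in 6 of 8 vmDR cells (median 9.37 CPM) and 3 of 6 Sert-cre cDR cells (1.05 CPM), and Cbln2 had medians of 133 and 95.4 CPM, while Cited1 had 217 and 979 CPM and Hcrtr2 2.91 and 45.6 CPM. The 20 higher named genes, taken from the 10X cells, had their highest median in Sert-cre cDR, at 0.43 (0.38 to 0.53), next to 0.24 in vmDR and -0.33 in dlDR, and the 12 lower named genes had their highest median, 0.65, in dlDR and their lowest, -0.43 and -0.42, in Sert-cre cDR and vmDR. In those scores Sert-cre cDR and vmDR had the highest medians of the higher genes and the lowest of the lower genes, with 1 sample per group. Among the cells of day 63 alone, a choice made after seeing the data, the higher genes scored 0.38 to 0.53 in the 6 Sert-cre cDR cells, -0.08 to 0.57 in 4 vmDR cells, -0.45 to 0.21 in 6 dmDR cells and -0.45 to -0.08 in 5 dlDR cells, so at that age the cDR cells lay above the dmDR and dlDR cells and within the range of the vmDR cells.

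**Figure D5:**
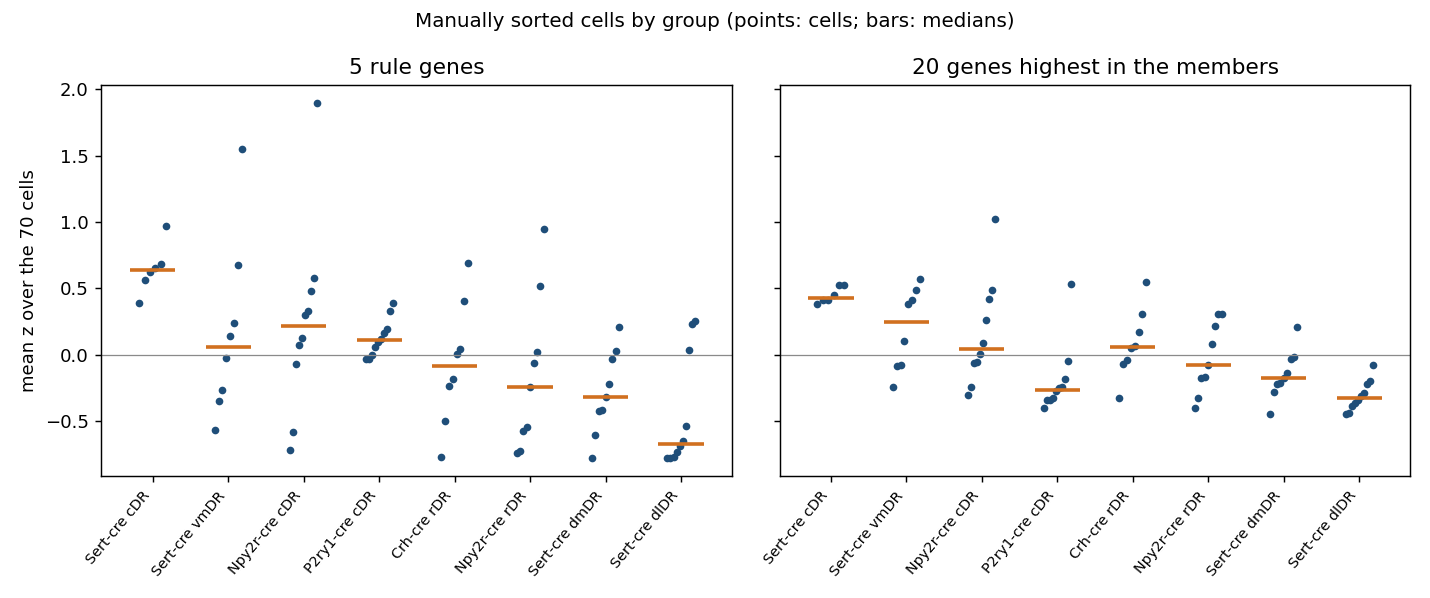
Mean z-score (vertical axes, no unit) of each of the 70 manually sorted cells (points) by group (horizontal axis) for the 5 rule genes and for the 20 higher named genes, with the median of each group as a line. Sert-cre cDR has the highest median in both panels, 0.63 and 0.43.

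Crhr2 was read in 6 of the 6 Sert-cre cDR cells, between 64.0 and 248 CPM with a median of 87.8. The median elsewhere was at most 13.2 CPM, in Crh-cre rDR. Rorb was also found in 6 of 6 of them with a median of 47.6 CPM (3.59 to 91.6), and no other group had a median above 0.46 CPM. Both genes were thus read in every caudal Sert-cre cell. Nr2f2 too was read in 6 of 6 of them, with a median of 91.2 CPM (0.23 to 109), and its medians were 92.0 CPM in P2ry1-cre cDR and 0 in vmDR. In the 10X cells Rorb and Nr2f2 were at 50.1 and 27.5 CPM in members. They were at 192 and 110 CPM in the Rorb set, which was built from them. Npy2r had a median of 38.7 CPM in Sert-cre cDR and was read in 4 of 6 cells, and in 3 of 8 vmDR cells, with 43.5 and 46.5 CPM of summed reads. It was at a median of 4.98 CPM and in 7 of 10 cells in Npy2r-cre cDR, and 1.97 CPM and 6 of 9 in Npy2r-cre rDR, groups whose Cre is driven by this gene and which thus cannot be read as an independent measure of it. Oxtr was in 3 of 6 Sert-cre cDR cells and in 0 of 10 P2ry1-cre cDR cells. Slc17a8 had medians of 287 CPM in vmDR, 128 CPM in P2ry1-cre cDR, 112 CPM in Sert-cre cDR and 75.7 CPM in Npy2r-cre cDR, and 0 in dlDR and dmDR. Gad2 was in 0 of 6 Sert-cre cDR cells and 9 of 10 dlDR cells. Asb4 reached a median of 922 CPM in dlDR and Trh was read in 7 of 10 cells there, while in Sert-cre cDR each was read in 1 of 6 cells at 0.23 CPM. Epha3 and Unc13c went another way, since both had a median of 0 in Sert-cre cDR, Epha3 its highest in P2ry1-cre cDR (8.79 CPM, 9 of 10 cells) and Unc13c its highest in dmDR (11.9 CPM, 5 of 9 cells).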

How the data were processed

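The 10X libraries (Chromium Single Cell 3′ v3) held cells purified on a microfluidic sorter. The authors mapped the reads to mm10 and deposited the result as raw UMI counts. Their filter had taken out genes seen in few cells, along with cells whose gene number, Fev level or ribosomal share was low, or whose glial markers, mitochondrial share, UMI total or gene number was high, so levels of those genes are limited by that choice. For the manually sorted cells, prepared with SMART-Seq v4, the authors deposited unfiltered read counts per gene and cell. The submitters' processing notes name Cell Ranger 3.0.2, STAR 2.5.4 and R 3.5.3. Columns of the manual table were matched to samples by title, with columns named Crf taken as the samples titled Crh, and columns of no sample numbered 0.

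Members were chosen by the rule given in the report, and the members and the gene lists were chosen with earlier results of these data known. Counts of a gene were summed over cells and divided by the summed total, as CPM. A log2 ratio has an exact conditional binomial interval, a level an exact Poisson interval and a share an exact Clopper-Pearson interval, all at 95% and for counting error only. Genes with at least 1 CPM over all cells were compared. A count below 3 in the lower group was raised to 3 for the 2-fold limit, without letting a ratio cross 0. Named genes were the 20 highest and 12 lowest ratios among genes at least 2-fold in both barcode sets, without rule genes, Met and numbered gene models, 6 a direction for each similar set by the same rule, and list genes that passed in both sets. A few genes that the rule names are not reported here. No p-value was computed. Thinning drew 20000 UMIs per cell and left out 1 member and 52 other cells. Shares of cells with a UMI after thinning are of the original members. All other thinned values are of members chosen anew from the thinned counts, 88 of them the same. Clustering used Seurat 5.3.0 in R 4.3.3 with 2000 variable genes, components 1 to 5 and 8 to 50, 20 neighbours and a resolution of 0.9. Doublets were called with Scrublet in scanpy 1.11.5 at an expected rate of 5%. Other steps used Python 3.11.15, numpy 2.4.6, scipy 1.17.1, pandas 2.3.3 and matplotlib 3.10.9. The ratio and scoring steps were tested on simulated data. Alternatives changed the number of members, depth, clipping, score genes, doublets, filter, fold, summing, the cells compared, barcode set and clustering.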

Additional observations from a re-analysis of the deposited data

Results flagged for a closer look

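Of 24 checks of the manually sorted cells (3 scores in 8 groups), 3 found a cell whose gap to its neighbour took up more of the group's range than Dixon's 95% limit allows, a limit that chance passes in about 1 in 20 checks of a group. In Npy2r-cre cDR, replicate 1 had a mean z of the 5 rule genes of 1.90, and the next cell 0.578 (a gap of 0.505 of the range, limit 0.466). In P2ry1-cre cDR, replicate 10 had 0.529 for the higher named genes, and the next cell -0.0473 (0.619 of the range). In Sert-cre cDR, replicate 4 had -0.387 for the lower named genes, and the next cell -0.417 (0.777 of the range, limit 0.625), a small difference in a group with very little spread.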

How the results depend on the processing

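None of the 87 gene ratios recomputed changed sign, which the choice of these genes had fixed for the ratios within each barcode set. Vgf, outside them, had a log2 ratio of -0.79 in set 1 and 0.30 in set 2. The share of members in their leading cluster, 72.0% as reported, was 64% with 200 members, 58.7% after thinning, 62% without Cited1 in the rule, 80.7% at resolution 0.7, 43.3% at 1.5 and 56% with components 6 and 7 kept. The 85 genes at least 2-fold higher became 129 after thinning, 658 with no level filter, 33 at 5 CPM, 341 at 1.5-fold, 56 against other cells with Slc17a8 and no Met, and 203 within barcode set 1, which has 28 members. The 508 lower genes became 189 at 5 CPM and 930 at 1.5-fold. Of the 16 higher named genes with a median above 0 in a manual group, 8 had their highest median in Sert-cre cDR, and 5 by CPM of summed reads. The median score of Sert-cre cDR was 0.43 with all 20 higher named genes in place of 0.63 with the rule genes. Of 1479 recomputed ratios, under 17 settings, 1181 stayed within their counting interval and 298 moved out of it. Among the 32 highest and lowest named genes, the 2-fold difference was lost (log2 ratios) for Kcnh8 (0.30) and C1ql3 (-0.80) after thinning, Antxr1 without Hcrtr2 in the rule (0.88), Tll1 (0.96) and Slc17a8 (0.87) against cells selected on Slc17a8, and, narrowly, Gng8 with 100 members. Of 55 further list genes past 2-fold in both sets, 17 lost it under some setting, 10 of them after thinning and 6 against cells selected on Slc17a8, which include Esr1 (0.87), Chrna4 (0.46), Cdh18 (0.90), Adra2a (-0.96) and, narrowly, Sema3c. Thinning kept 88 of the 150 members, and leaving out 1 rule gene kept 106 to 119. With z-scores within each barcode set, an alternative chosen after seeing the data, 123 members were kept and 55 members were in set 1 and 95 in set 2. With only the members of the leading cluster, also chosen then, 85 genes were higher and 600 lower. The causes were not tested. No paired analysis was possible because no result comes from a test and the labels name no animal that groups share. Depth limits genes under about 1 CPM in the members.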
